A study of Mus musculus with 6 samples.

Results

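The 9 genes Wt1, Tbx18, Tcf21, Bnc1, Upk3b, Upk1b, Msln, Lrrn4 and Gpm6a are known markers of the epicardium, the cell sheet that covers the heart, and of the mesothelium of which it is a part. They were taken by symbol from the table of raw gene counts, and all 9 had a row among its 15159 genes. Each gene was compared between embryonic mouse heart cells with a mutant and with a wild-type histone. The cells came from C57BL/6 x 129S4/SvJae embryos at embryonic day 18.5 and held a transgene for the histone variant H3.3 that doxycycline switches on. In the H3K9M group it encoded H3.3 with methionine in place of lysine 9, and in the H3WT group the wild-type protein. Both groups received doxycycline at 2 µg/ml on the first days of culture and were collected after 4 days on soft PDMS, a silicone, of 13 kPa. Each group had 3 libraries of polyadenylated RNA, and no uninduced cells or cells without a transgene were analysed here. The labels name neither the promoter of the transgene nor say if the replicates are different animals. Titles carry the codes M1, M2 and M5 in H3WT and M1, M3 and M5 in H3K9M for replicates 1 to 3, with no statement of what they mean. Every p-value therefore rests on the spread of these 6 libraries, which may be technical. The titles of replicate 2 of both groups lack the word soft that the other titles carry. Those of replicate 1 of both groups lack the code D4 that the other titles carry. The growth protocol is the same for all 6 libraries.

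The epicardium is a mesothelial epithelium that arises from the proepicardium and spreads over the embryonic heart. Some of its cells lose their epithelial contacts, enter the muscle wall and give rise to fibroblasts and mural cells, while the rest stay at the surface as a sheet with keratins, uroplakins and mesothelin. Wt1, Tbx18 and Tcf21 are transcription factors of the embryonic epicardium. Tcf21 stays on in cardiac fibroblasts, and Wt1 and Tbx18 are also active in some other cells of the heart. Methylation of lysine 9 of histone H3 marks silenced chromatin. Histones that carry methionine at this position are known to lower it, and the mark itself is not measured in these data.

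None of the 9 genes passed the test of H3K9M against H3WT, while the values of several differed between the groups or between libraries. Mesothelin (Msln) and the uroplakin gene Upk1b were higher in each of the 3 H3K9M libraries than in any H3WT library, and Lrrn4 was lower in each. Genes whose groups did not overlap in this way made up 11.3% of all tested genes in each direction. Tbx18 differed least, with group means of 68.8 and 66.7 CPM, the counts scaled to a normalised library of 1e+06. Tcf21 spread 3.73-fold over the 6 libraries, mostly within H3WT. In edgeR's quasi-likelihood test at an adjusted p under 0.05, 0 of the 9 were higher and 0 were lower, against 0.935% and 1.05% of the 14758 tested genes. At an unadjusted p under 0.05 stood 3 of the 9 (Tcf21, Msln and Lrrn4), against 16.4% of all tested genes. DESeq2, which called 6.80% of the genes with an adjusted p, called 0 of the 9, as did limma-voom. Among the 9, 3 had positive and 6 negative log2 fold changes, with a median of -0.27 against -0.0024 over all tested genes. RNA of a whole culture cannot tell fewer cells of a type from less RNA per cell.

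The promoters of 6 of the 9 genes were found in a RefSeq table for build GRCm38.p6, each as the 250 bases before and 50 bases after the start of the gene. Wt1, Upk1b and Msln were not matched there. The windows of Upk3b and Lrrn4 are shown because these surface genes had fold changes of opposite sign, that of Tcf21 because its counts varied most among the abundant factors, and that of Bnc1 because it holds the most CpG dinucleotides of the 7 windows. They lie at chr5:136038246-136038545 (plus strand), chr2:132880813-132881112 (minus strand), chr10:22820094-22820393 (minus strand) and chr7:81992250-81992549 (minus strand). Each is printed 5′ to 3′ along its gene, with matches to the motifs named below in capitals.
Upk3b: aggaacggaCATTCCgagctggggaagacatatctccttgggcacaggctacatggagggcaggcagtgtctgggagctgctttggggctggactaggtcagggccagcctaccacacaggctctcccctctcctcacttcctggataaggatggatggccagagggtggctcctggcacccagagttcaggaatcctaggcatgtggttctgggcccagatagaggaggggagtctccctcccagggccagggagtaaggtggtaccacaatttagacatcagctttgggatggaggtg
Lrrn4: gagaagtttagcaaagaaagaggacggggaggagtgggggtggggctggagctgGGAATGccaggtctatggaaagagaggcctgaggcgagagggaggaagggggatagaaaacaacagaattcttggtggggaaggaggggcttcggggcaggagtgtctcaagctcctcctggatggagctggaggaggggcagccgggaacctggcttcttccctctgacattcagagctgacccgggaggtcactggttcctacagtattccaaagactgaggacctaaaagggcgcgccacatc
Tcf21: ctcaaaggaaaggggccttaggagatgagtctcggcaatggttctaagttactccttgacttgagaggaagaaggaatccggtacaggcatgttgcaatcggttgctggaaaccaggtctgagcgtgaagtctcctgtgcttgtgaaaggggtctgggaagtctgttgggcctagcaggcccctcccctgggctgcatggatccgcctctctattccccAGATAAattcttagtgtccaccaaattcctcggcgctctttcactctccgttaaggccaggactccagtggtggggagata
Bnc1: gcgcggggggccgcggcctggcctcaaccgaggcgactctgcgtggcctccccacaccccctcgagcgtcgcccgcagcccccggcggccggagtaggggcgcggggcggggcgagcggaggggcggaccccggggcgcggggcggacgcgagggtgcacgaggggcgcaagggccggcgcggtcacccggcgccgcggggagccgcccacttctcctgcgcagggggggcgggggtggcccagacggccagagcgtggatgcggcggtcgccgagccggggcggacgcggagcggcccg

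The Upk3b window held 2 CpG dinucleotides, against a median of 7 over the 32851 promoters of the table, while that of Lrrn4 held 7 and that of Tcf21 8. The Bnc1 window held 50, more than in 99.1% of the promoters, with a GC content of 83.3%. That of Tbx18 held 15. Gpm6a has 2 listed starts, with 4 and 6. Their windows (chr8:54779184-54779483 and chr8:54954478-54954777) both end before the Gpm6a span given below, which starts at 54954843, and the first lies much further from it. The letters of 6 motifs were searched on both strands. GCGGGGGCG, a WT1-type site, occurs in 2.91% of all the promoters. CAGCTG, an E-box of the kind that TCF21 and its partners bind, occurs in 16.3%. GGTGTGA, a T-box site, occurs in 3.98% and CATTCC, bound by TEAD factors of the Hippo pathway, in 14.7%. AGATAA, bound by zinc finger factors of heart and blood cells, occurs in 11.2%, and the core promoter element TATAAA in 13.6%. Matches to different motifs did not overlap in these windows. No match was found in the windows of Tbx18 and Bnc1, and no other window held more than 1 match. CATTCC lay, on either strand, at base 10 of the Upk3b window, base 55 of the Lrrn4 window and base 126 of the first Gpm6a window. AGATAA lay at base 220 of the Tcf21 window, and TATAAA, on the other strand, at base 40 of the second Gpm6a window. Positions are counted from the 5′ base of each window, and a match describes the letters only.

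On build GRCm38 (GENCODE M21) the genes lie on 8 chromosomes. Wt1 spans 105126529 to 105173616 on chromosome 2, which also holds Lrrn4 (132868305 to 132880891). Tbx18 is on chromosome 9 (87702800 to 87731260), Tcf21 on chromosome 10 (22817281 to 22820174) and Bnc1 on chromosome 7 (81966672 to 81992292). Upk3b is on chromosome 5 (136038496 to 136046487), Upk1b on chromosome 16 (38773184 to 38800328), Msln on chromosome 17 (25748613 to 25754378) and Gpm6a on chromosome 8 (54954843 to 55060871). These are spans of whole genes, and counts were summed over each gene by the authors. Exons of Tbx18 overlap those of the opposite-strand gene D030062O11Rik over 970 bases, 20.6% of its exon length, and exons of Bnc1 overlap 4833418N17Rik over 98 bases. The strand setting of the counting is not given in the sources used here, so reads from these stretches may belong to either gene. Of the 50-base words of Msln transcripts 2.89% also occur in other genes, and for the 6 genes other than Tbx18, Msln and Bnc1 the share was 0%.

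Per kilobase of exon the 9 genes spanned a wide range. In H3WT, Tcf21 stood highest with 42.1 ± 22.3 CPM per kb (SD, n = 3), followed by Tbx18 with 14.6 ± 1.35. Wt1 followed with 1.23 ± 0.188 and Upk3b with 0.895 ± 0.238 CPM per kb, and the lowest Wt1 library and the highest Upk3b library lay side by side (1.04 and 1.03). Gpm6a stood at 0.375 ± 0.0405, Lrrn4 at 0.239 ± 0.0551 and Msln at 0.132 ± 0.0318 CPM per kb, with no overlap between libraries of neighbours. Bnc1 (0.0656 ± 0.0384) and Upk1b (0.0605 ± 0.0567) were lowest, did not differ beyond their spread, and the highest Upk1b library reached the lowest of Msln. In H3K9M the order of Tcf21 (22.8 ± 4.58) and Tbx18 (14.1 ± 1.05) was the same. Upk3b (1.37 ± 0.380) and Wt1 (0.928 ± 0.273) came next and overlapped, and Msln (0.330 ± 0.0490), Gpm6a (0.310 ± 0.193) and Upk1b (0.209 ± 0.110) overlapped as well. Lrrn4 (0.0791 ± 0.0144) and Bnc1 (0.0406 ± 0.0338) were lowest there and overlapped.

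**Figure D1:**
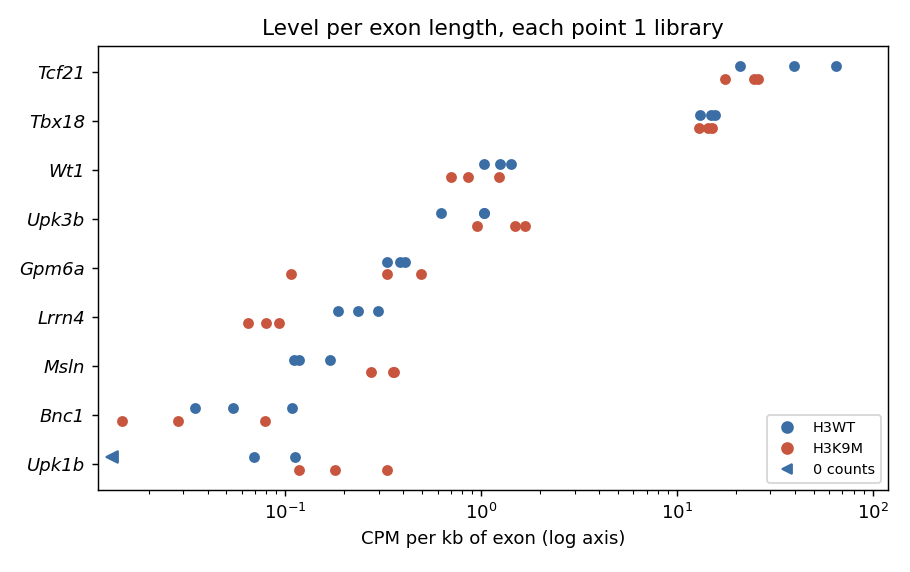
Level of each gene in CPM per kilobase of exon on a log axis, with 1 point for each of 3 H3WT libraries (blue) and 3 H3K9M libraries (red) and a triangle at the left edge for a library with 0 counts. Tcf21 and Tbx18 stand at 13.0 CPM per kb or more in every library, and no library of the other 7 genes exceeds 1.68.

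Among the transcription factors, Wt1 is a zinc finger factor needed for the formation of the epicardium and the kidney. It stood at 6.43, 8.76 and 7.71 CPM in H3WT replicates 1 to 3 and at 5.29, 7.62 and 4.33 CPM in H3K9M. H3K9M replicates 1 and 3 were the lowest of the 6, and replicate 2 lay within the H3WT range. The log2 fold change was -0.41 ± 0.23 (SE; edgeR adjusted p = 0.435) with a 95% interval from -0.94 to 0.12. It moved to -0.67 without H3K9M replicate 2 and to -0.24 without H3K9M replicate 3.

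Tbx18, a T-box factor of the epicardium and of the sinus node region, was at 74.2, 70.4 and 61.8 CPM in H3WT and at 71.0, 67.8 and 61.3 CPM in H3K9M. The groups overlapped throughout. Its log2 fold change of -0.044 ± 0.093 (edgeR adjusted p = 0.863) had an interval from -0.26 to 0.17, the narrowest of the 9. The sign turned without H3WT replicate 1 (0.011) or without H3K9M replicate 3 (0.013).

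Tcf21, a basic helix-loop-helix factor that fibroblast precursors of the epicardium need, was at 154, 93.7 and 49.1 CPM in H3WT and at 41.2, 61.3 and 57.9 CPM in H3K9M. H3WT replicates 1 and 2 stood above the other 4 libraries, and H3WT replicate 3 lay within the H3K9M range. On the log2 scale H3K9M differed from H3WT by -0.88 ± 0.35 (SE; edgeR adjusted p = 0.253), with an interval from -1.68 to -0.092. Without H3WT replicate 1 it was -0.42 (0.543), and without H3WT replicate 3 it was -1.21 and passed the test (edgeR adjusted p = 0.0359). Some other markers were also highest in H3WT replicate 1 and lowest of that group in replicate 3. The summed level of 8 macrophage markers was 481, 255 and 131 CPM in H3WT replicates 1 to 3 and 196 to 253 CPM in H3K9M, with all 8 present. The summed level of the other 9 fibroblast markers, most of it from 3 collagen genes, was 19809, 17698 and 13514 CPM in H3WT and 12547 to 19316 CPM in H3K9M. Single fibroblast markers differed in pattern. The matrix gene Dcn was at 228, 114 and 72.4 CPM in H3WT and 48.9, 95.7 and 116 CPM in H3K9M. The surface gene Thy1 was at 344, 395 and 483 CPM in H3WT and at 647, 584 and 599 CPM in H3K9M, above every H3WT library (edgeR adjusted p = 0.0565). Ddr2, a collagen receptor, rose from 290, 276 and 236 CPM to 406, 400 and 459 CPM (edgeR adjusted p = 0.0210). The part of either cell type in the Tcf21 values was not tested.

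Bnc1, a basonuclin zinc finger factor of mesothelia and squamous epithelia, was counted 9, 28 and 17 times in H3WT and 4, 8 and 21 times in H3K9M. These counts are 0.160, 0.504 and 0.250 CPM and 0.0683, 0.132 and 0.366 CPM. The groups overlapped, and with a mean of 14.5 counts per library counting error alone gives a coefficient of variation of 26.3%, against 58.6% in H3WT and 83.2% in H3K9M. The log2 fold change was -0.69 ± 0.79 (edgeR adjusted p = 0.730), with an interval from -2.49 to 1.11, which includes a 2-fold difference in either direction. It ranged from -0.13 without H3WT replicate 2 to -1.58 without H3K9M replicate 3, and was -0.29 without H3K9M replicate 1.

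**Figure D2:**
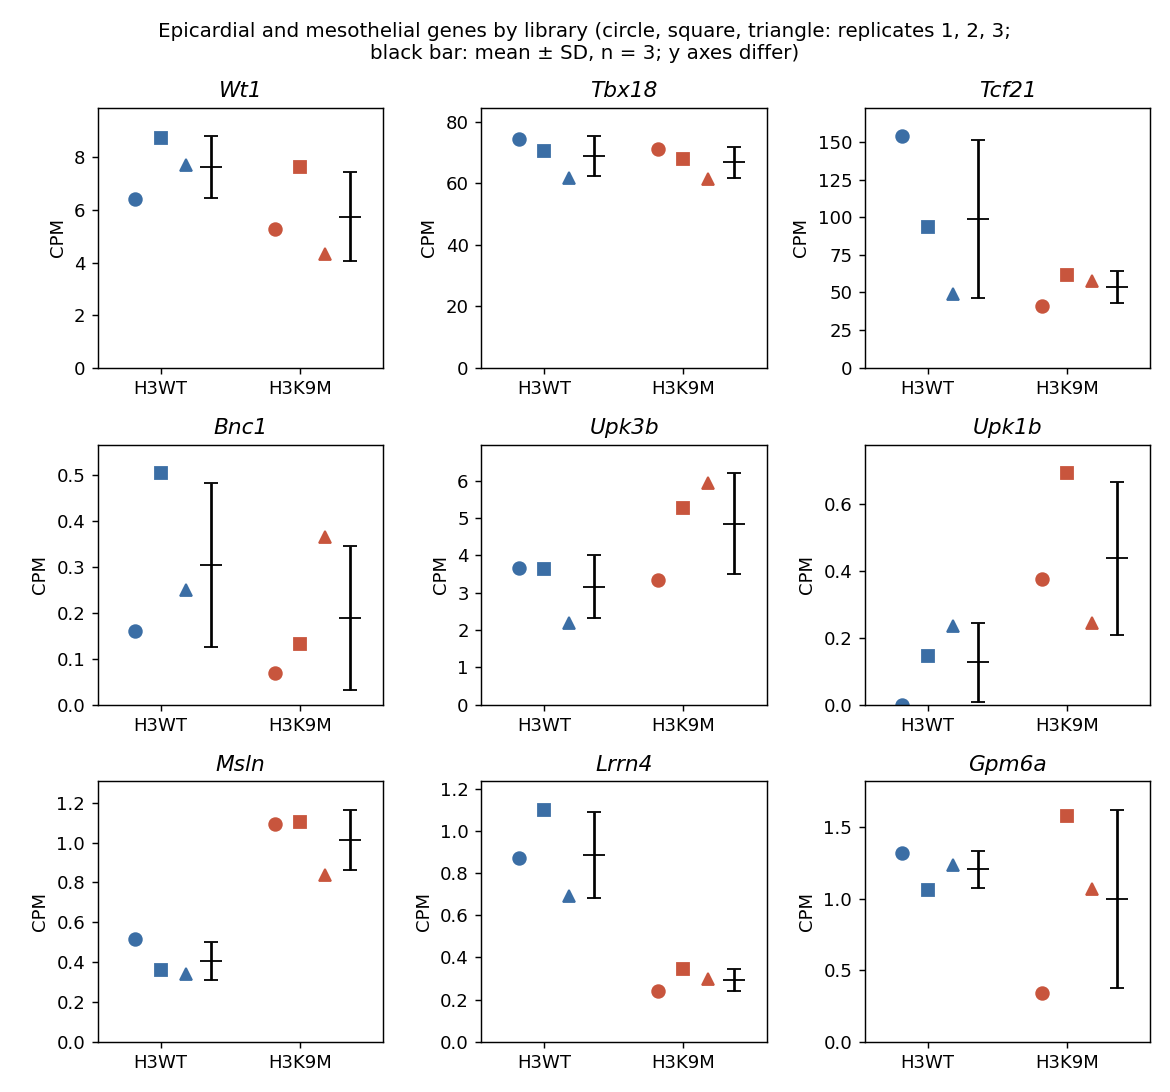
CPM of the 9 genes in each library, as circles, squares and triangles for replicates 1, 2 and 3 of H3WT (blue) and H3K9M (red), with black bars for mean ± SD (n = 3) and y axes that start at 0 and differ between genes. Msln and Upk1b lie higher and Lrrn4 lower in all 3 H3K9M libraries, and Tcf21 runs from 154 down to 49.1 CPM within H3WT.

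Among the surface genes, Upk3b encodes a uroplakin, a membrane protein first known from the urinary tract lining and now used as a marker of mesothelial cells. It stood at 3.65, 3.64 and 2.19 CPM in H3WT and at 3.35, 5.27 and 5.93 CPM in H3K9M. H3K9M replicates 2 and 3 were the highest of the 6, and replicate 1 lay within the H3WT range. Its log2 fold change was 0.62 ± 0.29 (edgeR adjusted p = 0.344), with an interval from -0.051 to 1.29. It was 0.41 without H3WT replicate 3 and 0.83 without H3K9M replicate 1, and did not pass in either fit.

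Upk1b, a tetraspanin of the same uroplakin plaques, was counted 0, 8 and 16 times in H3WT and 22, 42 and 14 times in H3K9M. The corresponding levels were 0, 0.144 and 0.235 CPM and 0.376, 0.691 and 0.244 CPM. The groups did not overlap in CPM, although the highest H3WT library and the lowest H3K9M library were 0.235 and 0.244 CPM. The raw counts of these libraries, 16 and 14, stood in the opposite order, so the separation rests on the scaling by library size. The count of 0 in H3WT replicate 1 allows a level of up to 0.0535 CPM (3 counts, for counting error only). The log2 fold change was 1.75 ± 0.95 (edgeR adjusted p = 0.414), with an interval from -0.42 to 3.92. It lay between 1.19 and 2.57 without any 1 library.

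Msln, mesothelin, is an anchored surface glycoprotein of mesothelial cells that binds the mucin MUC16. It was counted 29, 20 and 23 times in H3WT and 64, 67 and 48 times in H3K9M, which is 0.517, 0.360 and 0.338 CPM and 1.09, 1.10 and 0.838 CPM. The 3 H3K9M libraries lay above all 3 H3WT libraries. Its log2 fold change was 1.32 ± 0.44 (edgeR adjusted p = 0.186, unadjusted p = 0.0160), a fitted 2.49-fold difference with an interval from 0.31 to 2.32. It lay between 1.20 and 1.53 without any 1 library. DESeq2 gave an adjusted p of 0.0844, the smallest over the alternatives that tested it, and the largest was 0.431.

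Lrrn4, a leucine-rich repeat membrane protein found in mesothelium and neurons, went the other way. It was counted 49, 61 and 47 times in H3WT and 14, 21 and 17 times in H3K9M, which is 0.873, 1.10 and 0.691 CPM and 0.239, 0.346 and 0.297 CPM. Each H3K9M library lay below each H3WT library. The log2 fold change was -1.59 ± 0.48 (edgeR adjusted p = 0.145, unadjusted p = 0.00949), with an interval from -2.67 to -0.50. This was the smallest p of the 9 genes and stood at rank 967 among the 14758 tested. Without any 1 library the value lay between -1.74 and -1.40, and the adjusted p ran from 0.0504 with DESeq2 to 0.410 without H3WT replicate 2.

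Groups that do not overlap are common in these data. Such genes made up 11.3% of the tested genes with H3K9M higher and 11.3% with H3K9M lower, beside 2 (Msln, Upk1b) and 1 (Lrrn4) of the 9. An exact permutation test of a single gene with 3 libraries against 3 cannot give a two-sided p below 0.1.

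Gpm6a, a membrane glycoprotein of the proteolipid family known from neurons and from mesothelium, was at 1.32, 1.06 and 1.23 CPM in H3WT and at 0.342, 1.58 and 1.06 CPM in H3K9M. The H3K9M libraries held both the lowest and the highest of the 6 values. Its log2 fold change was -0.27 ± 0.53 (edgeR adjusted p = 0.849) and turned to 0.13 without H3K9M replicate 1. It was -0.78 without H3K9M replicate 2. The summed level of 6 neuronal and Schwann cell markers was 162 to 254 CPM in H3WT and 133 to 198 CPM in H3K9M. H3K9M replicate 1 was the lowest library for this sum (133 CPM) as well as for Gpm6a. Their part in the Gpm6a values was not tested.

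**Figure D3:**
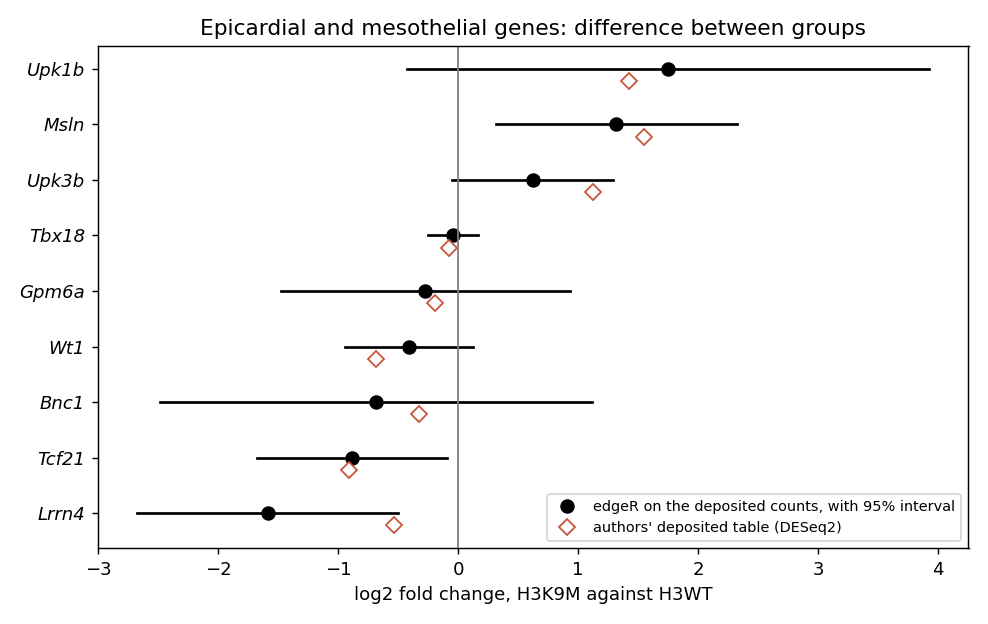
Log2 fold change of H3K9M against H3WT for the 9 genes, with edgeR values on the deposited counts as black points with 95% intervals (3 libraries per group) and the values of the authors' deposited table as open red diamonds. The intervals of Msln, Tcf21 and Lrrn4 leave out 0, none of the 9 passed after adjustment over all genes, and the diamond of Lrrn4 (-0.53) lies far from its point (-1.59).

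All 9 genes also appear in the authors' deposited table of their own DESeq2 comparison, with the same signs. Of the 9 genes, 0 had in the authors' deposited table an adjusted p under 0.05, against 4.10% of the 14406 genes with an adjusted p there, and for Bnc1 no adjusted p is given. Sizes differed for several. The authors' deposited table gives Upk3b a log2 fold change of 1.12 (adjusted p = 0.0527), where the counts gave 0.62, and Wt1 -0.68 (0.255), where the counts gave -0.41. For Lrrn4 the authors' deposited table gives -0.53 ± 0.93 (adjusted p = 0.898), where the counts gave -1.59 ± 0.48. The mean normalised count in the authors' deposited table was a median of 0.252 of the mean raw count over 14412 shared genes (quartiles 0.243 and 0.263). This ratio was 0.257 for Wt1, 0.201 for Lrrn4 and 0.156 for Msln in the authors' deposited table. The cause of the difference between the tables was not tested.

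The 9 profiles over the 6 libraries did not form a single pattern. As a measure of likeness, each gene's log2 CPM was centred on its mean, and the root mean square difference between 2 genes was taken over the 6 libraries. Among pairs of the 9 genes the smallest differences were between Wt1 and Tbx18 (0.336) and between Tbx18 and Upk3b (0.477). The measure does not scale the profiles, so the nearly flat Tbx18 lies close to genes that vary little. A small difference thus need not mean that 2 genes vary together. In H3K9M replicate 3 Tbx18 stood at -0.14 and Upk3b at 0.64 from their means. The largest difference was between Upk1b and Lrrn4 (1.98). Msln was nearest to Upk3b (0.512) and Lrrn4 to Tcf21 (0.544). Among 12337 other genes of at least 1 CPM, the nearest to Tcf21 were Dlk1 (0.103) and Fam13c (0.108). Dlk1 is an imprinted gene of a membrane protein that acts in growth and differentiation. Its group means were 54.4 and 28.3 CPM. The nearest to Wt1 were Mansc1 (0.0585) and Pcsk4 (0.0816), and to Upk3b Nxpe4 (0.144) and Fxyd6 (0.147). Tbx18 was nearest to Igf2bp2 (0.0277) and Zfp503 (0.0307), and Gpm6a to Gpr182 (0.243) and Arl5c (0.249). Such near profiles are a description of 6 libraries.

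**Figure D4:**
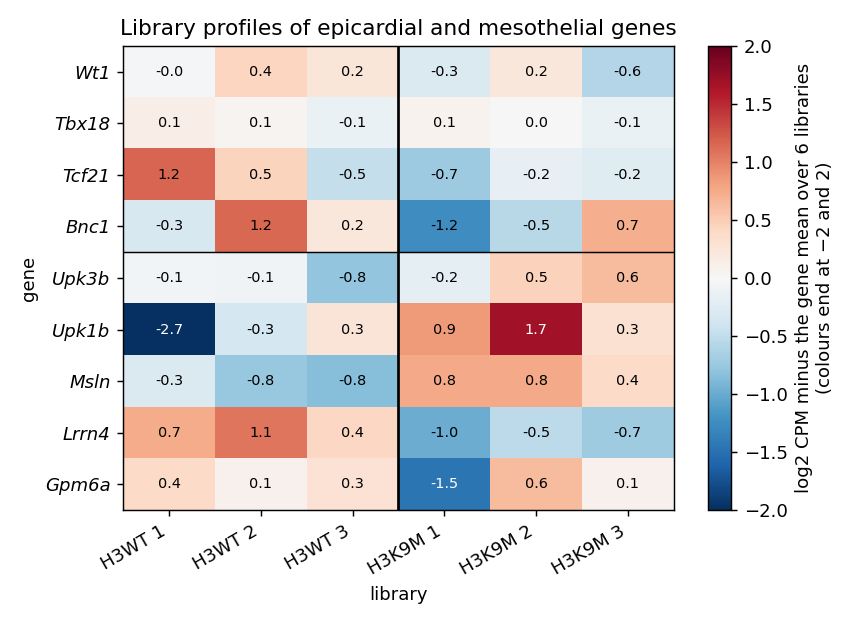
Log2 CPM of each of the 9 genes minus its mean over the 6 libraries, in columns by library and rows with the transcription factors above the line and the surface genes below it, computed with a prior of 2 counts. Msln runs from below 0 in H3WT to above 0 in H3K9M and Lrrn4 the reverse, while Tcf21 is highest in H3WT replicate 1 (1.16) and Gpm6a lowest in H3K9M replicate 1 (-1.47).

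Other genes of the epicardium and mesothelium were read from a list of 26, of which 21 had a row and 20 were tested. In edgeR's test 5 rose in H3K9M and 1 fell, beside 0.935% and 1.05% of all tested genes. This list and those below were chosen with earlier results of these data known. Their counts beside the shares of all genes are therefore no test of enrichment. The list's median log2 fold change was -0.21, with 9 positive and 11 negative. Keratins of simple epithelia were among the risers. Krt7 was at 6.93, 9.82 and 7.64 CPM in H3WT and at 21.6, 21.4 and 17.2 CPM in H3K9M. Its log2 fold change was 1.30 ± 0.16 (edgeR adjusted p = 0.00827), and it was called in all 14 alternatives. Krt8 was at 0.606, 0.883 and 1.26 CPM in H3WT and at 11.2, 11.7 and 3.82 CPM in H3K9M (3.27 ± 0.46, edgeR adjusted p = 0.0159). With limma-voom the adjusted p of Krt8 was 0.0916. Neither pair of groups overlapped. Their usual partners Krt18 (0.95 ± 0.28) and Krt19 (1.43 ± 0.62) did not pass (edgeR adjusted p = 0.137 and 0.301). In Krt19 the H3WT libraries ran from 0.641 to 5.72 CPM and the H3K9M libraries from 4.97 to 10.8 CPM.

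The other 3 risers were Clu, Igfbp6 and Scx. Clu, the secreted chaperone clusterin, was at 369, 323 and 316 CPM in H3WT and at 1090, 713 and 540 CPM in H3K9M (1.22 ± 0.22, edgeR adjusted p = 0.0376). Igfbp6, which binds insulin-like growth factors, was at 10.6, 6.67 and 5.79 CPM in H3WT and at 14.9, 17.8 and 24.5 CPM in H3K9M (1.31 ± 0.26, 0.0443). Scx, scleraxis, a factor of tendon cells and of part of the proepicardium, was at 13.2, 15.9 and 17.2 CPM in H3WT and between 23.0 and 23.6 CPM in H3K9M (0.60 ± 0.12, 0.0433). The gene that fell was Sema3d, a secreted semaphorin of the proepicardium, from 56.5, 64.9 and 61.2 CPM to 23.4, 32.6 and 37.4 CPM (-0.97 ± 0.16, 0.0254). No library of one group reached into the other for these genes. Of the 6 calls, that on Krt7 alone was kept without H3WT replicate 2 or without H3K9M replicate 2. In those fits the edgeR adjusted p of the other 5 ranged from 0.0649 (Krt8) to 0.188 (Igfbp6).

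Some of these calls were also lost without other libraries, while the fold changes kept their sign. With each library left out in turn, the log2 fold change lay between 0.90 and 1.42 for Clu, 0.50 and 0.68 for Scx and 1.09 and 1.61 for Igfbp6. Without H3WT replicate 1 the edgeR adjusted p was 0.0594 for Clu and 0.0811 for Scx, and without H3WT replicate 3 it was 0.0592 for Clu and 0.0656 for Igfbp6. Without H3K9M replicate 1 it was 0.114 for Scx and 0.0650 for Igfbp6, and without H3K9M replicate 3 it was 0.130 and 0.132. Scx and Igfbp6 are also made outside the epicardium, as are the keratins. Of 8 markers of keratinised and stratified epithelium, 4 had a row (not Krt5, Krt14, Krt1 and Ivl). Their summed level was 21.4 to 38.4 CPM in H3WT and 65.0 to 177 CPM in H3K9M, most of it Sprr1a. This cornified envelope gene rose from 15.6, 22.9 and 32.3 CPM to 172, 90.5 and 59.6 CPM (edgeR adjusted p = 0.0362). Lor also had a positive log2 fold change (0.81 ± 0.41, edgeR adjusted p = 0.373). Those of Krt10 (-0.44 ± 0.31, 0.540) and Trp63 (-0.56 ± 0.48, 0.616) were negative, so the sum follows Sprr1a and not all of these markers. Of 8 markers of lung epithelium only Foxj1 had a row, with at most 16 counts. The part of other epithelia in the keratin values was not tested.

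**Figure D5:**
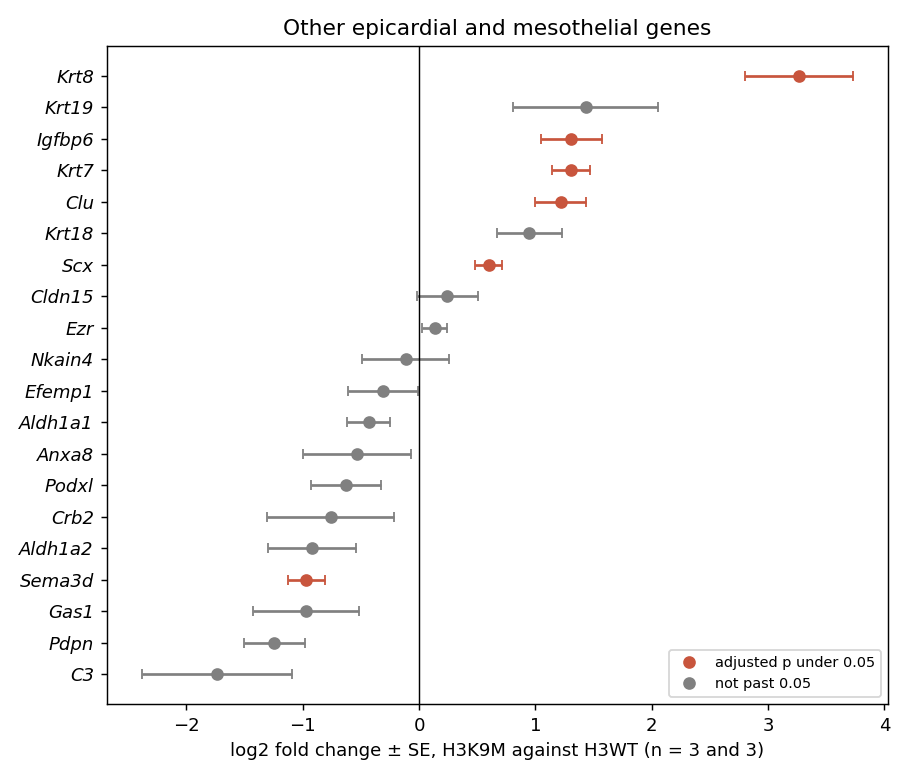
Log2 fold change ± SE of H3K9M against H3WT (3 libraries each) for the 20 tested genes of the wider epicardial and mesothelial list, red where the edgeR adjusted p was under 0.05 and grey elsewhere. Krt8, Igfbp6, Krt7, Clu and Scx lie to the right and Sema3d to the left among the red points.

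Several listed genes below the threshold had their lowest values in H3K9M. Pdpn, podoplanin, named after its values were seen, was at 55.3, 38.4 and 24.1 CPM in H3WT and at 18.1, 14.1 and 17.5 CPM in H3K9M (-1.24 ± 0.26, edgeR adjusted p = 0.0561). It passed with DESeq2 and without H3WT replicate 3. The authors' deposited DESeq2 table gives Pdpn -1.35 with an adjusted p of 2.17e-05. Aldh1a2, the retinoic acid synthesis enzyme of the epicardium, also named after its values were seen, was at 86.9, 41.5 and 25.4 CPM in H3WT and at 23.1, 25.8 and 32.1 CPM in H3K9M (-0.92 ± 0.38, 0.270). H3WT replicate 1 was the highest library for Aldh1a2, Pdpn and Tcf21. Ezr, ezrin, the most abundant of the list beside Clu, stood at 192 ± 16.1 and 211 ± 26.7 CPM (SD, n = 3).

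Genes of epicardial signalling and of the change from epithelium to mesenchyme gave no call in edgeR's test. Of 27 tested of 30 listed, 0 were called higher and 0 lower in edgeR, 8 stood at an unadjusted p under 0.05 (16.4% of all tested genes did), and limma-voom called 0. DESeq2 called 4 of them, beside 6.80% of all genes: Itga4, Thbs1, Fgfr2 and Tgfbr2, all with negative fold changes. In the authors' deposited DESeq2 table these 4 had adjusted p of 0.0243, 0.00559, 0.0357 and 0.0476, also with negative fold changes. There 4.10% of all genes with an adjusted p stood under 0.05. The median log2 fold change was -0.16, with 9 positive and 18 negative, and the H3K9M libraries lay below all H3WT libraries in 7 genes and above them in 1, beside 11.3% of all tested genes in each direction. Nfatc1, named after its values were seen, was that 1 gene. Itga4, the integrin subunit by which the epicardium attaches, was at 110, 208 and 176 CPM in H3WT and at 37.7, 76.9 and 84.7 CPM in H3K9M (-1.31 ± 0.31, edgeR adjusted p = 0.0788). Itga4 passed without H3WT replicate 1. Without H3WT replicate 3, Pdgfra and Fgfr2 passed. Thbs1, a matricellular glycoprotein, was at 4125 ± 623 and 2880 ± 454 CPM (-0.52 ± 0.15, edgeR adjusted p = 0.125), and Vim, vimentin, at 3020 ± 244 and 3289 ± 240 CPM. Itga4 and Pdgfra are also made by blood cells or fibroblasts.

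Relatives and partners of the 9 genes were read from a further list of 24, of which 17 were tested. None passed in edgeR, DESeq2 or limma-voom on the deposited counts, and 5 stood at an unadjusted p under 0.05, beside 16.4% of all tested genes. The H3K9M libraries lay below all H3WT libraries in 4 of the 17 and above them in 0, beside 11.3% of all tested genes in each direction. The median log2 fold change was -0.25, with 3 positive and 14 negative. Bnc2, the paralogue of Bnc1, was at 2.33, 2.18 and 1.37 CPM in H3WT and at 0.751, 1.12 and 0.297 CPM in H3K9M (-1.43 ± 0.50, edgeR adjusted p = 0.202), with no overlap. Tcf4, a partner of class II helix-loop-helix factors such as TCF21, was at 128 ± 19.2 and 103 ± 6.53 CPM (-0.32 ± 0.11, edgeR adjusted p = 0.192). For Tcf4 the authors' deposited table gives -0.43 with an adjusted p of 0.0353. Tcf12, a partner of the same kind, was at 132 ± 5.99 and 131 ± 3.91 CPM. Tbx20, a T-box relative of Tbx18 that heart muscle expresses, stood at 705 ± 47.8 and 618 ± 60.0 CPM. Muc16, which encodes the ligand of mesothelin, had no row in the counts used here.

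The libraries held between 55550379 and 67994773 counts. The 12 cardiomyocyte markers were all present and summed to between 30467 and 37635 CPM in every library, so heart muscle RNA was abundant in all 6. Endothelial markers (8 of 8 present) summed to 190 to 253 CPM in H3WT and 109 to 174 CPM in H3K9M, without overlap. Smooth muscle and pericyte markers summed to 5289 to 6992 and 4881 to 5402 CPM, with overlap. The part of these cell types in the values of the 9 genes was not tested.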

How the data were processed

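The authors deposited whole-number read counts per gene for the 6 libraries, made with HISAT2 and featureCounts on mm10, and tested with DESeq2, per the submitters' processing notes; their versions were not given in the sources used here. Their second deposited table holds a mean normalised count (a signal), log2 fold changes with standard errors, p-values and a Wald score, the last not used.

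A low-count filter (filterByExpr, at its minimums of 10 and 15 counts) kept 14758 genes, all 9 members included. TMM factors and the quasi-likelihood test came from edgeR 4.0.16 (R 4.3.3), the model held the group alone, and Benjamini-Hochberg adjustment ran over all tested genes at 0.05. CPM uses the TMM-scaled library size. Standard errors are the log2 fold change over the square root of F, and intervals use the fit's degrees of freedom. Levels per kilobase use the merged exons of GENCODE M21. Promoters are from RefSeq (GRCm38.p6).

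Alternatives were DESeq2 1.42.0, limma-voom (limma 3.58.1), RLE factors, library totals alone, TMM without cardiomyocyte markers, other filters, a block on the replicate number, and the loss of each library in turn. Of each list, the genes named are those called, the 2 of smallest p and the 2 of highest CPM; others are named after their values were seen. The 9 members and the lists were chosen with earlier results of these data known. The steps were tested on simulated data.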

Additional observations from a re-analysis of the deposited data

How the results depend on the processing

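Over 122 fits of single members under the alternatives, 3 changed sign and 1 passed the threshold. Of the 3, 2 were of Tbx18, whose near-zero value lay between -0.12 and 0.013 when 1 library was left out. The remaining 1 was of Gpm6a, which lay between -0.78 and 0.13 and turned only without H3K9M replicate 1. The 1 pass was Tcf21, so that the number of members called lower was 0 or 1 when 1 library was left out. At least 1 CPM in 3 libraries removed Upk1b, Msln, Lrrn4 and Bnc1 from the test. Other scalings moved the median log2 fold change of all genes by at most 0.0034.

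Over all genes, 138 were higher and 155 lower. DESeq2 called 471 and 539, and leaving out 1 library gave 30 to 149 and 30 to 223. Of the wider epicardial list 6 genes were called, and 1 to 5 when 1 library was left out. Of the signalling and transition list 0 were called, 4 with DESeq2 and 0 to 2 when 1 library was left out. With the replicate number as a block (replicate block) the counts were 31 higher and 27 lower over all genes, 1 of the wider list (Krt7), 1 of the signalling list (Itga4) and 0 members. Same-numbered libraries deviated from their group means with correlations of -0.157, 0.035 and -0.069. With 3 libraries per group these values cannot decide whether the numbers pair the libraries. Replicates 1 and 3 share their title codes (M1, M5) between the groups, and replicates 2 (M2, M3) do not. Counting error is largest for Bnc1 and Upk1b, with means of 14.5 and 17 counts per library.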

Other observations

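Wt1os, the antisense gene beside Wt1, was counted 11, 7 and 4 times in H3WT and 0, 31 and 22 times in H3K9M, while Wt1 itself was counted 361, 486 and 525 times and 310, 463 and 248 times. The 0 in H3K9M replicate 1 allows up to 0.0512 CPM. The H3K9M libraries thus held both the lowest and the highest Wt1os counts, and the log2 fold change was 1.24 ± 1.12 (edgeR adjusted p = 0.642). No exon base of Wt1os overlaps an exon of Wt1 in GENCODE M21.

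Close relatives of the surface genes showed no separation of the groups. Upk1a, the paralogue of Upk1b, was at 0.499, 0.504 and 0.691 CPM in H3WT and at 0.683, 0.247 and 0.663 CPM in H3K9M (edgeR adjusted p = 0.957). Mslnl, the mesothelin-like gene, was counted at most 9 times in any library and was not tested. Gpm6b, the paralogue of Gpm6a, was at 50.3, 18.3 and 8.57 CPM in H3WT and at 8.50, 19.3 and 24.1 CPM in H3K9M (edgeR adjusted p = 0.690), and H3WT replicate 1 was its highest library, as for Tcf21. These genes were named after their values were seen.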
